A study of Mus musculus with 4 samples.

Results

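Expression of 10 genes of the transforming growth factor beta (TGF-β) pathway was examined in NKT cells sorted from the small intestine lamina propria (SI-LP). The genes were taken by their symbols from the deposited gene-level count table, and all 10 were found among the 25239 genes of that table. They are *Tgfb1* (a ligand), *Tgfbr1* and *Tgfbr2* (the receptors), *Smad2*, *Smad3* and *Smad4* (the transducing SMADs), *Smad7* (an inhibitory SMAD), *Smurf2* (a ubiquitin ligase), and *Ski* and *Skil* (nuclear co-repressors). NKT cells are T cells with a semi-invariant T cell receptor that recognizes lipids presented by CD1d.

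The data were 4 bulk RNA-seq libraries of SI-LP NKT cells from untreated wild-type (WT) C57BL/6Jax mice, all of a single condition with no control group. According to the study's methods, mice received a nanobody against ARTC2 before tissue harvest, and cells positive for TCRβ and for the PBS57-loaded CD1d tetramer and negative for B220, CD11b, CD11c and CD8 were sorted. The labels give no age, and the methods describe young adult animals of both sexes. The sample titles set replicates 3 and 4 apart as First and replicates 1 and 2 as Second, called here the first and the second experiment; whether each library came from a separate animal was not stated, so p-values measure only the spread between these libraries.

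TGF-β is secreted in a latent form, and once released it binds TGFBR2, which recruits and phosphorylates TGFBR1. TGFBR1 in turn phosphorylates SMAD2 and SMAD3, which join SMAD4 and move to the nucleus to regulate target genes. SMAD7 and SMURF2 act back on the receptor, SKI and SKIL (also called SnoN) hold SMAD complexes in a repressed state, and in the gut the pathway is known for the residency of T cells in the mucosa and for restraint of their effector functions.

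The libraries held 3882803 to 8732858 counts assigned to genes, and 3 counts, the limit that a count of 0 allows, corresponded to 0.344 to 0.773 CPM (counts scaled to a common library total) for counting error only. From 7.36% to 28.1% of the counts in a library lay on *Rn45s*, a ribosomal RNA precursor. Of the 25239 genes, 11689 reached 10 counts in 2 or more libraries and were tested. The summed level of 8 T cell markers ranged from 1024 to 3572 CPM with no marker at 0, and the CD8 genes were at no more than 1.24 CPM. Markers of other cells were also present: 22 epithelial genes summed to 1007, 10532, 248 and 29746 CPM in replicates 1 to 4, and 10 plasma and B cell genes to 6618, 7066, 140 and 377 CPM with *Cd79a* at 0 in at least 1 library. The 11 myeloid genes summed to between 28.3 and 160.1 CPM. The 11 stromal and endothelial genes summed to between 42.4 and 196.0 CPM, with *Col1a1* at 0 in at least 1 library. The 8 mast cell genes summed to between 1.39 and 62.9 CPM, with 6 of them, *Mcpt1* included, at 0 in all 4 libraries.

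All 10 genes were expressed in every library, with between 119 counts (*Tgfbr1* in replicate 4) and 4142 counts (*Skil* in replicate 1). CPM, scaled by the trimmed mean of M-values (TMM), was used to compare a gene between libraries, and TPM, the same unit after division by the summed exon length, to compare genes with each other. Among the tested genes ranked by TPM, the 10 genes had percentiles from 47.3 to 91.3 as means over the 4 libraries. The median was 78.1, and 8 of 10 were above the median gene. In single libraries the percentiles ran from 32.9 (*Smad2*, replicate 2) to 95.6 (*Tgfb1*, replicate 3). In replicate 2 *Tgfbr1* (42.8), *Smad4* (47.7) and *Smad7* (43.3) were also below the median gene. The order by mean TPM, from the highest, was *Skil*, *Tgfb1*, *Smurf2*, *Tgfbr2*, *Ski*, *Smad3*, *Smad7*, *Smad4*, *Tgfbr1* and *Smad2*. In this order only the step from *Smad4* to *Tgfbr1* had the same direction in all 4 libraries, and the other 8 of 9 neighbouring pairs changed places between libraries (lowest adjusted p = 0.804, two-sided exact permutation test over libraries).

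**Figure D1:**
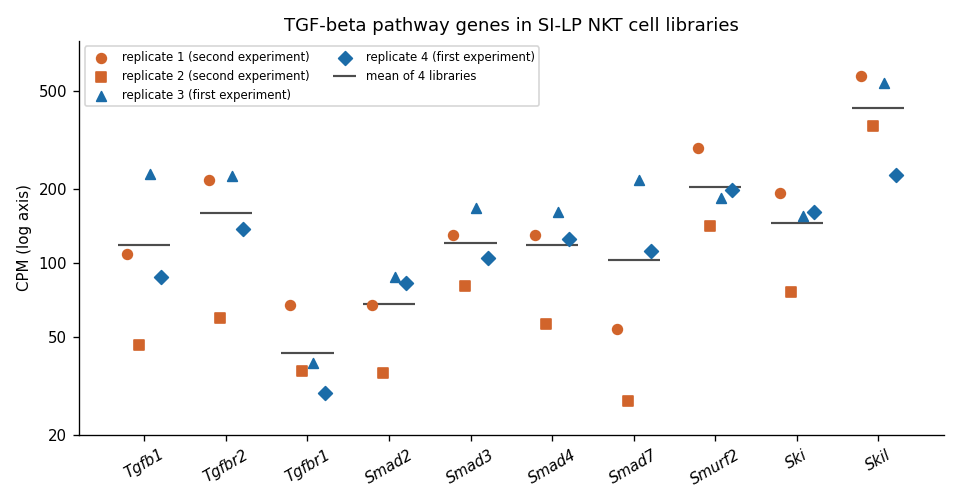
Level of each gene in CPM (log axis) in the 4 SI-LP NKT cell libraries, with symbols for replicates, colors for experiments and a bar for the mean. *Skil* had the highest mean CPM (425.0), replicate 2 was the lowest library for 8 of the 10 genes, and *Smad7* had the widest range, from 27.7 to 217.4 CPM.

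*Tgfb1*, which encodes the ligand TGF-β1 (chromosome 7, 25687002-25705077, GRCm38), was read at 108.9, 46.7, 230.1 and 87.6 CPM in replicates 1, 2, 3 and 4 (mean 118.3 ± 78.9 SD, n = 4). Replicate 3 was the highest and replicate 2 the lowest, and the ranges of the experiments overlapped. On the per-length scale *Tgfb1* averaged 144.1 ± 84.8 TPM and was the highest of the 10 genes in replicates 3 and 4. The other TGF-β isoforms had few counts: *Tgfb2* had 12 in replicate 2 and 0 in the others, and *Tgfb3* had 0, 1, 7 and 32. In replicate 4 *Tgfb3* was at 8.03 CPM, above the limit that a count of 0 allows. *Tgfb1* was thus the only one of the 3 TGF-β ligand genes with at least 10 counts in 2 or more libraries.

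The type II receptor gene *Tgfbr2* (chromosome 9, 116087695-116175363) was at 217.0, 59.8, 225.7 and 137.2 CPM in replicates 1 to 4 (mean 159.9 ± 77.7 SD). The type I receptor gene *Tgfbr1* (chromosome 4, 47353222-47414924) was at 67.3, 36.7, 39.3 and 29.9 CPM (mean 43.3 ± 16.5 SD). *Tgfbr2* was lowest in replicate 2, while *Tgfbr1* was highest in replicate 1 with the other libraries close to each other, and for both genes the experiments overlapped. Per length, the libraries held 90.4 ± 44.1 TPM of *Tgfbr2* and 20.2 ± 9.33 TPM of *Tgfbr1*. The difference in log2(TPM + 0.5) was 2.00, 1.02, 2.82 and 2.48 in replicates 1 to 4 (mean 2.08 ± 0.78 SD), a geometric mean ratio of 4.23 with a range of 2.02 to 7.04. *Tgfbr2* was the higher receptor in 4 of 4 libraries, the least so in replicate 2.

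The sequence just upstream of the annotated start is shown for the receptor pair, because both chains form a single complex while their transcripts differed in level in every library. RefSeq (GRCm38.p6) windows were matched for 6 of the 10 genes and not for *Smad2*, *Smad4*, *Smad7* and *Skil*. Capitals mark GGGCGG and CCAAT on either strand (read as CCGCCC and ATTGG on the other), for *Tgfbr1* at chr4:47353062-47353221 on the plus strand and for *Tgfbr2* at chr9:116175364-116175523 on the minus strand.
Tgfbr1: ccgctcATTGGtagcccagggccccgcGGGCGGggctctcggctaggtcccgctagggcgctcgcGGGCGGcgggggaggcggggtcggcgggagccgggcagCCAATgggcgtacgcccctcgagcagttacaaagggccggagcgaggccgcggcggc
Tgfbr2: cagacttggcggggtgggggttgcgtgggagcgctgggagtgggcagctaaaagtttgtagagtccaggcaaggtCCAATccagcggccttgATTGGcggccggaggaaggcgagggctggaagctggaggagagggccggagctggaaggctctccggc
The *Tgfbr1* stretch held 2 matches to GGGCGG and 2 to CCAAT with a GC content of 78.1%, and the *Tgfbr2* stretch held 0 and 2 with 65.6%. Among 32851 windows cut to the same length, 29.3% held GGGCGG, 25.6% held CCAAT, and the median GC content was 53.8%. A second *Tgfbr1* window (chr4:47385966-47386265) did not match the deposited gene start and is not shown. It held 0 matches to either motif, with a GC content of 52.8% over its upstream bases. These matches describe the letters only. Binding was not measured, and any relation of these sequences to the levels of the receptor transcripts was not tested.

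The receptor-regulated SMAD genes differed in level. *Smad3* (chromosome 9, 63646767-63757994) was at 130.0, 80.5, 167.2 and 104.6 CPM in replicates 1 to 4 (mean 120.6 ± 37.1 SD). *Smad2* (chromosome 18, 76241701-76311747) was at 67.8, 35.8, 87.7 and 82.8 CPM (mean 68.5 ± 23.4 SD). *Smad4*, the shared partner of both (chromosome 18, 73634791-73703791), was at 129.8, 56.5, 161.2 and 125.7 CPM (mean 118.3 ± 44.1 SD). For all 3 genes replicate 2 was the lowest and replicate 3 the highest. The experiments overlapped for *Smad3* and *Smad4*, whereas both libraries of the second experiment were below both of the first for *Smad2*.

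Within the SMAD2/3/4 sum in TPM, *Smad3* made up 51.1%, 58.3%, 51.7% and 44.6% in replicates 1 to 4, *Smad4* 27.3% to 35.8%, and *Smad2* 14.4% to 19.6%. *Smad3* exceeded *Smad2* by 1.66 ± 0.35 (SD) in log2(TPM + 0.5), a geometric mean ratio of 3.17 with a range of 2.24 to 3.92. *Smad4* exceeded *Smad2* by 1.01 ± 0.17, with ratios between 1.80 and 2.27, and lay below *Smad3* by a difference of -0.65 ± 0.32. Each of these orders held in 4 of 4 libraries in TPM. They rest in part on the length correction: without it the log2 differences were 0.84 for *Smad3* over *Smad2*, 0.76 for *Smad4* over *Smad2* and -0.07 for *Smad4* against *Smad3*. In CPM *Smad4* was above *Smad3* in replicate 4 (125.7 against 104.6).

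*Smad7*, which encodes the inhibitory SMAD that is itself a well known TGF-β target gene (chromosome 18, 75367365-75395934), varied the most. It was at 54.0, 27.7, 217.4 and 112.4 CPM in replicates 1 to 4 (mean 102.9 ± 84.2 SD). Both libraries of the first experiment were above both of the second, and the lower of the first was 2.08 times the higher of the second. *Smurf2*, whose product is recruited to the receptor by SMAD7 (chromosome 11, 106820061-106920715), was at 293.9, 141.2, 183.5 and 197.5 CPM (mean 204.0 ± 64.5 SD). Replicate 1 was the highest, replicate 2 the lowest, and the experiments overlapped. The difference in log2(TPM + 0.5) of *Smad7* minus *Smurf2* was -2.13, -2.03, 0.54 and -0.52 in replicates 1 to 4, so *Smad7* was the higher in replicate 3 alone (p = 0.375, two-sided exact permutation test).

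The co-repressor gene *Skil* (chromosome 3, 31095058-31122923) was at 573.9, 360.0, 537.1 and 228.8 CPM in replicates 1 to 4 (mean 425.0 ± 160.7 SD). Its paralog *Ski* (chromosome 4, 155154075-155222535) was at 192.4, 76.0, 154.7 and 160.6 CPM (mean 145.9 ± 49.5 SD). Replicate 4 was the lowest for *Skil* and replicate 2 for *Ski*, and the experiments overlapped for both. *Skil* was above *Ski* per length in 4 of 4 libraries, by a mean of 1.16 in log2(TPM + 0.5), but in replicate 4 *Ski* was at 0.908 of *Skil*, against 0.275 in replicate 2. *Skil* alone accounted for 24.0%, 31.0%, 18.5% and 13.3% of the summed TPM of the 10 genes.

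**Figure D2:**
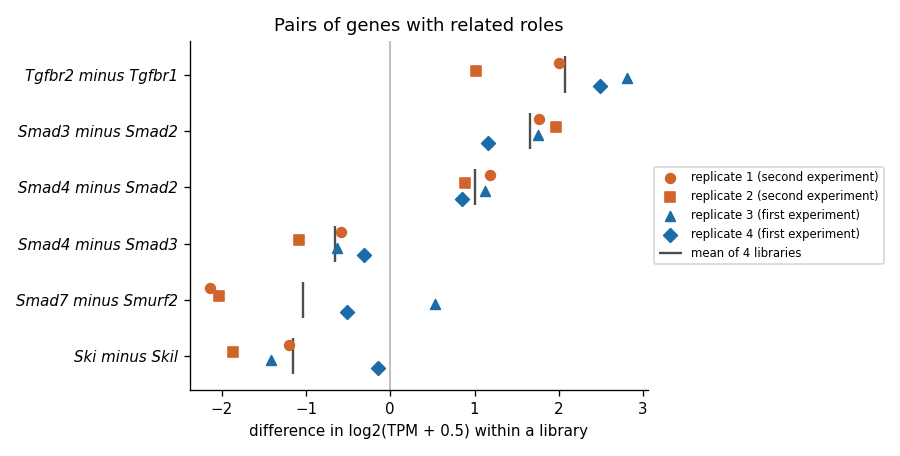
Difference in log2(TPM + 0.5) between genes with related roles, 1 symbol per library and a bar for the mean of 4 libraries, with 0 meaning equal levels. In 5 of 6 pairs all 4 libraries lay on the same side of 0, and *Smad7* minus *Smurf2* was on both sides.

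Of the 6 pairs compared by role, 4 had the same direction in all 4 libraries in CPM and 5 did in TPM. With 4 libraries the two-sided exact permutation test cannot go below p = 0.13, which was the value for each of these 5 (Benjamini-Hochberg adjusted p = 0.15 over the 6 pairs). In the libraries with the lower epithelial marker level of each experiment, replicates 1 and 3, the direction was shared in 5 of 6 pairs. This number could not be lower, because 5 pairs already had the same direction in all 4 libraries. It therefore adds nothing on the part of epithelial RNA in these orders. *Smad7*, *Ski*, *Skil* and *Smurf2*, grouped here as opposing genes, were summed in TPM and divided by the sum of the transducing SMAD genes. The ratio was 3.65, 3.57, 2.94 and 2.68 in replicates 1 to 4 (mean 3.21 ± 0.48 SD). The opposing group holds more genes than the other, and *Skil* alone made up 26.3% to 52.5% of its sum. The ratio describes RNA levels only, and the activity of the proteins was not measured. The share of *Smad7* in that opposing sum was 26.2% and 20.5% in the first experiment, compared with 6.66% and 6.42% in the second.

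Next, the experiments were compared with edgeR's quasi-likelihood test across all 11689 tested genes. None of the 10 genes passed an adjusted p of 0.05 (each adjusted p = 0.9997, edgeR), and the background was 0% of all genes called, with 248 genes (2.12%) at an unadjusted p under 0.05. DESeq2 called 41 genes on the same counts and 0 of the 10. *Smad7* was 1 of the 248, with a log2 fold change of the second minus the first experiment of -2.01 ± 0.69 (SE), and 11.4% of the tested genes had a larger change in either direction. It remained between -2.54 and -1.47 across 9 alternative settings (lowest adjusted p = 0.739, with DESeq2), and its unadjusted p was above 0.05 without replicate 2 or without replicate 3.

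The estimates for the other 9 genes ranged from -1.03 ± 0.75 for *Tgfb1* to 0.59 ± 0.78 for *Tgfbr1*. *Smad2* (-0.72 ± 0.68), *Smad4* (-0.62 ± 0.64), *Tgfbr2* (-0.39 ± 0.75), *Smad3* (-0.37 ± 0.60) and *Ski* (-0.23 ± 0.64) were on the negative side, and *Skil* (0.29 ± 0.67) and *Smurf2* (0.19 ± 0.60) on the positive. The signs for *Tgfbr2*, *Ski*, *Skil* and *Smurf2* changed under at least 1 alternative. The median over the 10 genes was -0.38, against 0.03 over all tested genes, and without TMM scaling these became -0.14 and 0.28. The libraries did not overlap between experiments for 2 of the 10 genes, *Smad2* and *Smad7*, both lower in the second, where 29.1% of all tested genes did not overlap and 14.4% were lower in the second without overlap. The plasma and B cell markers given above were also separated by experiment, as was the share of counts on *Rn45s* (28.1% and 21.6% in replicates 3 and 4 of the first, 11.4% and 7.36% in replicates 1 and 2 of the second), and their part in these differences was not tested.

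**Figure D3:**
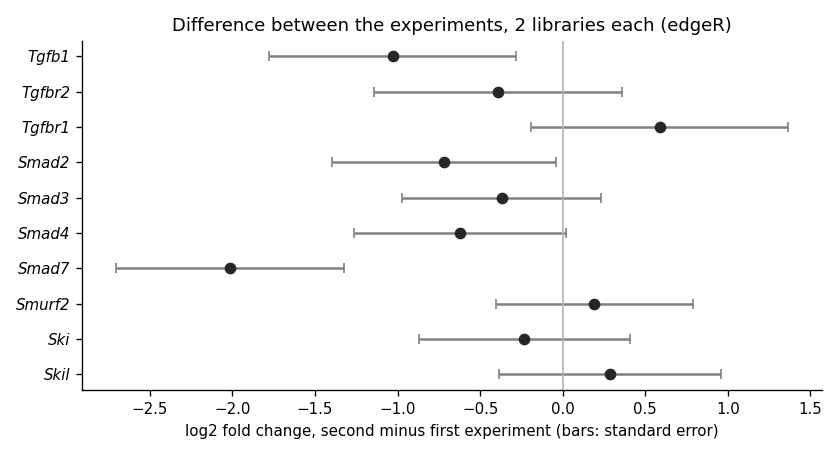
Estimated log2 fold change of each gene (the second minus the first experiment, with 2 libraries in either), with bars for the standard error from edgeR. The *Smad7* estimate of -2.01 lies farthest from 0, and none of the 10 passed the adjusted threshold.

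Within the experiments, replicate 4 was compared with replicate 3 and replicate 2 with replicate 1, as values with no test. The 10 genes had a median log2 CPM difference of -0.53 in the first experiment and -1.01 in the second, against 0.08 and 0.13 for all tested genes. In both pairs 8 of 10 genes were lower in replicate 4 or 2 than in its partner, where 29.9% of all tested genes, and 37.5% of the 8089 genes with at least 10 counts in every library, were lower in both. *Tgfb1* had differences of -1.39 and -1.22, *Tgfbr2* of -0.72 and -1.86, *Skil* of -1.23 and -0.67, and *Smad7* of -0.95 and -0.96. The exceptions were *Ski* (0.05) and *Smurf2* (0.11), which were close to equal in replicates 3 and 4.

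The marker lists moved along the same pairs of libraries. The 8 T cell markers were all lower in replicates 4 and 2, with median differences of -1.51 and -1.11, and the 22 epithelial markers had median differences of 5.64 and 3.36. In bulk samples, fewer cells of a type and less RNA per cell cannot be told apart, and the part of the epithelial RNA in the differences of the 10 genes was not tested. Levels were therefore also expressed per 100 CPM of summed T cell markers.

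On this scale *Tgfb1* was at 4.12, 4.56, 6.44 and 6.53 in replicates 1 to 4. Its highest-to-lowest ratio was 1.59, compared with 4.93 in CPM, and the values grouped by experiment. *Tgfbr2* was at 8.21, 5.83, 6.32 and 10.2 per 100 T cell marker CPM, a ratio of 1.76 compared with 3.78. The ratio was also smaller for *Smad3* (1.68 against 2.08), *Smad4* (2.08 against 2.85) and *Skil* (2.34 against 2.51). It was larger for *Tgfbr1* (3.25 against 2.26), *Smurf2* (2.87 against 2.08), *Ski* (2.77 against 2.53) and *Smad2* (2.52 against 2.45).

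*Smad7* kept the widest range per T cell marker CPM, at 2.05, 2.70, 6.09 and 8.39 in replicates 1 to 4, a ratio of 4.10. The first experiment stayed above the second without overlap, by 2.25 times from its lower to the other's higher library. *Smad2*, at 2.56, 3.50, 2.46 and 6.18, overlapped between the experiments on this scale. The libraries did not overlap for 4 of 10 genes, where 22.4% of all tested genes did not: *Tgfb1* and *Smad7* were higher in the first experiment, and *Tgfbr1* (2.55 and 3.58 against 1.10 and 2.23) and *Skil* (21.7 and 35.1 against 15.0 and 17.1) in the second.

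**Figure D4:**
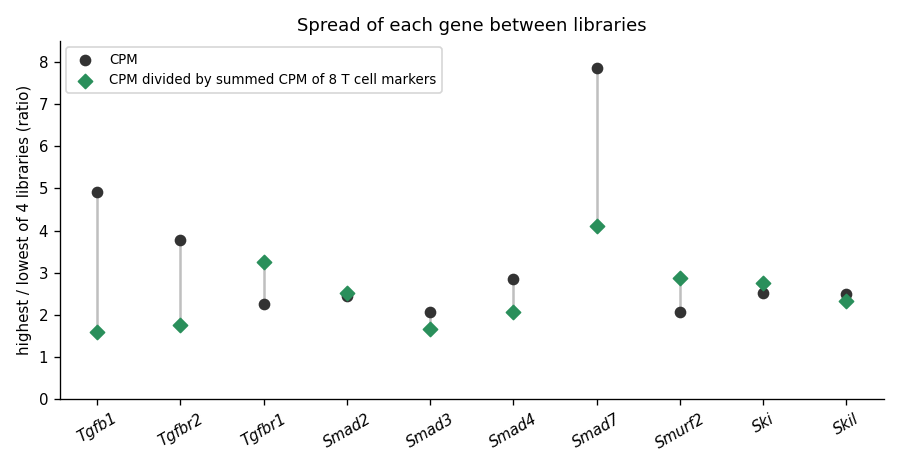
Ratio of the highest to the lowest of the 4 libraries for each gene, in CPM (circles) and after division by the summed CPM of 8 T cell markers (diamonds). The ratio was 4.93 in CPM and 1.59 after scaling for *Tgfb1*, 3.78 and 1.76 for *Tgfbr2*, and 7.86 and 4.10 for *Smad7*.

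The spread of the 10 genes was set beside that of other genes, which were not matched for level. The highest-to-lowest CPM ratio ran from 2.08 to 7.86 with a median of 2.52, and the median over the 8089 genes with at least 10 counts in every library was 3.26. The biological coefficient of variation from edgeR was estimated with experiment as a term, so differences between the experiments were left out of it. It was 0.53 for *Smurf2*, the lowest, and 0.68 for *Tgfbr1*, the highest of the 10. *Smad7*, with the widest CPM ratio, was at 0.58. The median was 0.89 over all tested genes, which include genes with few counts. The coefficient of variation of the levels was 30.7% to 81.8%, well above the counting error of 1.55% to 9.17%. Replicate 2 was the lowest library for 8 of the 10 genes, as it was for 30.2% of the 8089 genes.

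The remaining pathway was covered by 86 further genes in lists of ligands, latency and activation factors, receptors, SMADs, regulators, cofactors and the non-SMAD branch. Of these, 58 were tested, 13 had at most 3 counts in each library, and the 58 had a median TPM percentile of 55.6. None of the 58 passed the test between experiments (edgeR, adjusted p of 0.05) and none had an unadjusted p under 0.05, and DESeq2 called 0 of them with 1, *Lrrc32*, under 0.05 unadjusted. Between experiments 13 of the 58 did not overlap, where 29.1% of all tested genes did not.

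Among the genes that store and release latent TGF-β, integrin β3 (*Itgb3*) and integrin β1 (*Itgb1*) were the highest, at 234.7 ± 187.9 and 189.9 ± 31.0 TPM (SD, n = 4). *Itgb3* was at 772.8, 132.8, 923.9 and 171.1 CPM in replicates 1 to 4, high in replicates 1 and 3 and low in replicates 2 and 4, while *Itgb1* stayed between 243.1 and 355.8 CPM. *Furin*, the protease that cleaves the TGF-β precursor, was at 99.96 ± 61.8 TPM, and *Itgav*, the partner chain of several activating integrins, at 38.6 ± 22.7 TPM. *Itgb8*, whose product pairs with the αV chain to release TGF-β, had 0 counts in all 4 libraries. *Lrrc32*, which encodes the surface anchor GARP, had 74, 36, 206 and 101 counts, or 14.2 ± 11.7 TPM, and at 25.3 and 46.0 CPM in the first experiment it was above the 10.3 and 3.45 CPM of the second.

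Of 15 other ligand genes, 2 were tested, *Gdf11* (12.4 ± 6.54 TPM) and *Bmp7* (7.04 ± 7.20 TPM), and 7 had at most 3 counts in each library. Of 12 other receptor genes, 6 were tested, led by the activin receptor *Acvr1b* (34.4 ± 17.8 TPM) and the BMP receptor *Bmpr1a* (15.7 ± 10.9 TPM). The co-receptor betaglycan (*Tgfbr3*) had 5, 1, 1 and 51 counts in replicates 1 to 4, nearly all of them in replicate 4. No other receptor gene of the list reached the mean TPM of *Tgfbr2*, and *Acvr1b* was above that of *Tgfbr1*.

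Among 24 regulators, 23 were tested, with the receptor-binding immunophilin *Fkbp1a* (270.7 ± 90.0 TPM) and the SMAD co-repressor *Tgif1* (173.6 ± 95.7 TPM) the highest. Among 10 cofactors, 9 were tested, with *Runx3* (173.6 ± 144.5 TPM) and *Hdac1* (163.7 ± 67.0 TPM) the highest. *Runx3*, a partner of SMADs in T cells, was at 249.1, 75.9, 630.2 and 137.0 CPM in replicates 1 to 4, highest in replicate 3 and lowest in replicate 2. All 7 genes of the non-SMAD branch were tested, led by *Rhoa* (497.7 ± 148.0 TPM) and *Tab2* (267.0 ± 99.1 TPM).

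**Figure D5:**
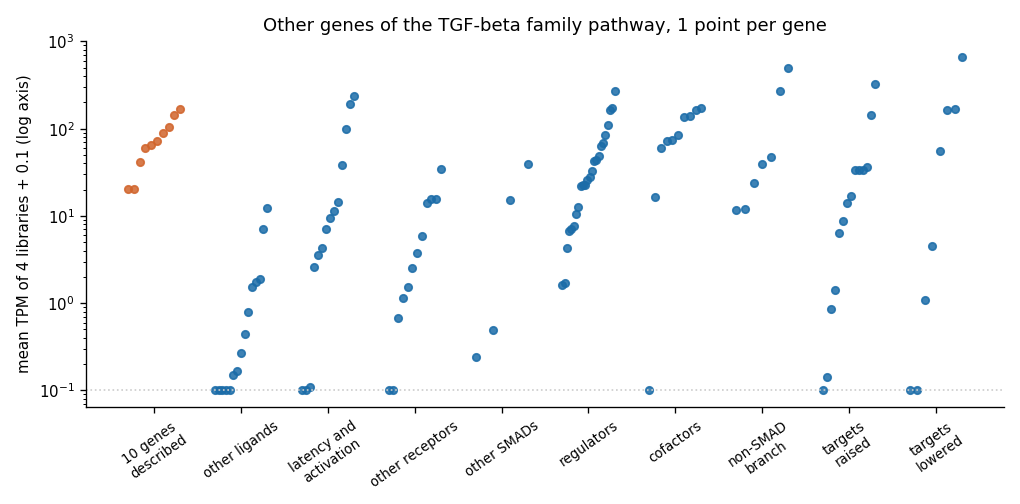
Mean TPM of 4 libraries plus 0.1 (log axis) for the 10 genes and for the other genes of the pathway and its targets, 1 point per gene, with the dotted line at 0 TPM. The 10 genes ran from 20.1 to 167.0 TPM, and 13 of the 86 other pathway genes had at most 3 counts in each library.

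Genes known to be raised by TGF-β in lymphocytes or other cells were at unlike levels. *Rgs1*, a regulator of chemokine receptor signaling, was at 327.4 ± 140.0 TPM and *Cdkn1a*, a cell-cycle inhibitor, at 145.0 ± 62.0 TPM, the highest of the 14 genes found in the table. *Itgae*, which encodes the CD103 chain of the integrin that binds epithelial E-cadherin, had 11, 40, 0 and 6 counts in replicates 1 to 4. Of the 14, 10 were tested, edgeR called 0 with 1 under an unadjusted p of 0.05, and DESeq2 called that gene. It was *Tgfbi*, a matrix protein gene, with 0, 0, 21 and 279 counts in replicates 1 to 4, most of them in replicate 4. Of 8 genes known to be lowered by TGF-β, 5 were tested, and edgeR and DESeq2 called 0 with 0 under an unadjusted p of 0.05. The highest of the 8 were the cytotoxic protease *Gzmb*, at 659.1 ± 515.0 TPM, and the cytokine *Ifng*, at 167.5 ± 58.2 TPM. Levels in this list were unlike too, and 2 of the 8 genes had at most 3 counts in each library.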

How the data were processed

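Bulk RNA-seq of sorted SI-LP NKT cells was analysed from 4 libraries of a single group. The authors deposited raw counts per gene from featureCounts 1.6.4, run without a strand option on a RefSeq annotation of mm10 (GRCm38), with each gene's summed exon length as a further deposited column. The labels name a low-input amplification kit and paired-end sequencing, and the submitters' processing notes list GRCm38.p6, while the study's methods name HISAT2 and a later build, so coordinates follow the table. Of the 6 count columns, 2 matched no sample and were not used. The exons of the 10 genes overlapped those of 0 other genes.

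Counts were normalized by TMM (edgeR 4.0.16, R 4.3.3) on library totals. Genes that reached 10 counts in 2 or more libraries entered the quasi-likelihood test of edgeR, with experiment as the only term and p-values adjusted by Benjamini-Hochberg, and DESeq2 1.42.0 as an alternative. The edgeR fit was also run on simulated data, with outcomes not given here. TPM was computed from counts and exon length, with a pseudocount of 0.5 on the log2 scale. Percentiles are among tested genes, as means over the 4 libraries unless a library is named. Pairs of genes were compared with a two-sided exact sign-flip permutation test over libraries. Named besides the 10 genes were the 2 genes of highest TPM per list and genes chosen by function (1 of them is not reported here), and *Tgfb2*, *Tgfb3*, *Tgfbi*, *Smad6*, *Smad9* and *Bmpr2* were added after their values were seen. The 10 genes and all lists were chosen with earlier results of these data known. Other scalings, filters, pseudocounts, length corrections and the leaving out of each library were tried.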

Additional observations from a re-analysis of the deposited data

How the results depend on the processing

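Counts of genes called between the experiments depended on the tool and filter: edgeR called 0, DESeq2 41, edgeR without a filter 60, and 0 to 7 when each library was left out in turn. None of these settings called any of the 10 genes. Of the 10 places in the order by mean TPM, 1 was held by the same gene with CPM in place of TPM, and 3 to 10 were when a library was left out. The median TPM percentile of the other pathway genes was 55.6, or 68.4 by CPM. In alternatives chosen after seeing the data, replicates 1 and 3 alone gave a median highest-to-lowest ratio per T cell marker CPM of 1.50. Over all 4 libraries it was 2.43, but such a ratio cannot rise when libraries are left out. The lower value therefore does not show closer agreement of those libraries. The number of the 10 genes that did not overlap between experiments was 2 in CPM. In alternatives also chosen after seeing the data it was 4 per T cell marker CPM and 3 by library size alone. The opposing-to-transducing ratio was 2.94 in CPM. The causes of these changes were not tested. No paired analysis was possible because the experiments share no replicate numbers. With 2 libraries per experiment, the precision is set by the spread between libraries rather than by depth.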

Other observations

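Genes of the BMP branch of the TGF-β family were at unlike levels between libraries. *Smad1*, which transduces BMP signals, had 6, 853, 83 and 270 counts in replicates 1 to 4, or 0.83, 81.7, 18.5 and 67.7 CPM. It was highest in replicates 2 and 4, the libraries with 10532 and 29746 CPM of epithelial markers, and lowest in replicate 1. *Smad5*, its paralog, was at 60.0, 13.9, 32.1 and 54.7 CPM, lowest in replicate 2. The BMP receptor gene *Bmpr1a* was at 24.1, 50.4, 5.13 and 42.2 CPM, and again replicates 2 and 4 were the highest. The type II receptor gene *Bmpr2* was at 69.4, 75.9, 20.98 and 48.9 CPM, highest in replicates 1 and 2. The part of epithelial RNA in these levels was not tested. The inhibitory SMAD gene of this branch, *Smad6*, had 0, 1, 0 and 7 counts, and *Smad9* had 0, 2, 0 and 4, so neither reached 10 counts in any library.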
